A study of Drosophila melanogaster with 2 samples.

Results

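The regions described here are 9103 weak peaks of tagged CTCF that fell below the reproducibility threshold of the study and yet had a summit at nearly the same place in both replicates. The material was whole Drosophila melanogaster embryos, 0 to 16 h old and of mixed sex, used for chromatin immunoprecipitation and sequencing (ChIP-seq), from a transgenic line whose CTCF carries GFP at the C terminus. The antibody was directed against GFP. The series held 1 group, with the biological replicates 2 and 3, and no untagged embryos were analysed here. The peaks were chosen by a rule on the authors' dm6 lists, which hold a signal score for each peak. A peak of the pooled relaxed list on 1 of the 6 chromosome arms became a member if it overlapped no peak that passed the authors' threshold on the irreproducible discovery rate (called reproducible below) and had a summit within 100 bp in the relaxed list of each replicate. The pooled list held 29999 peaks on the arms and 5443 reproducible peaks were listed. Of the pooled peaks 23283 were sub-threshold, and the members were 39.1% of these and 30.3% of all.

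CTCF is a DNA-binding protein with a row of zinc fingers, and in flies it is known from insulators, elements that keep enhancers from acting on the wrong promoter, above all in the bithorax complex of Hox genes. It recognises a GC-rich core sequence. Other insulator proteins of the fly bind other sequences. BEAF-32 and the transcription factor DREF share the DNA replication-related element (DRE), and su(Hw) binds an AT-rich site. Motif 1 is a core promoter element of broadly active genes to which the insulator partner M1BP binds. In chromatin immunoprecipitation a protein can also be recovered at sites that it reaches through other proteins, and open promoters can be recovered at a low level. From whole embryos, a site bound in few cells and a site bound weakly in many cells cannot be told apart.

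The exact CTCF core, in its 4 forms AGATGGCGC, AGAGGGCGC, AGGTGGCGC and AGGGGGCGC on both strands, lay within 50 bp of 60 member summits. They are shown because they are the strongest members that carry the sequence CTCF itself binds. The lines give 6 of the 7 strongest, then in the weakest reproducible peak that has it, with 10 bases on either side and the core in capitals, 5′ to 3′ on the strand that carries it (RefSeq sequence of dm6). Each is named by the gene with the nearest transcript start. The ND-30 line holds a second exact core, left in lower case before the one in capitals.
CG18585 (chr2L:7690500-7690528, plus strand): gtccagccgaAGGTGGCGCtatctgcagt
eya (chr2L:6528029-6528057, plus strand): agggcagtgtAGAGGGCGCgaatgtcgct
CG32264 (chr3L:3765928-3765956, plus strand): tgtgcgaaagAGAGGGCGCtagagatgta
CG6005 (chr3R:19013254-19013282, plus strand): gaggatacgcAGGTGGCGCcaccgccgga
ND-30 (chr3L:3157848-3157876, plus strand): agagggcgccAGGTGGCGCcagagaattg
Got2 (chr2L:1986641-1986669, minus strand): atcgaaagacAGGTGGCGCctaattgaaa
CG1387, reproducible (chrX:8390897-8390925, minus strand): ttctcccactAGGTGGCGCtgctatctta

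Counted as exact strings, the DRE, Motif 1 and the su(Hw) core were each carried by more members than the CTCF core. The strings differ in length and in background frequency, so these counts do not rank binding. The DRE (TATCGATA), Motif 1 (GGTCACAC) and the su(Hw) core (GCATACTT) are shown in capitals in 7 of the strongest such members, again with 10 bases on either side. These examples were chosen after their values were seen.
DRE at CycT (chr3L:17557820-17557847, plus strand): tatttcgcatTATCGATAttatttttaa
DRE at mh (chrX:15475454-15475481, plus strand): gttagtcaggTATCGATAagttcggtta
DRE at Bub3 (chr3R:29675427-29675454, plus strand): tcgatatcacTATCGATAcattgcatat
Motif 1 at MESR6 (chr3L:19092661-19092688, plus strand): acagcaatctGGTCACACtgccaaacag
Motif 1 at drpr (chr3L:1731083-1731110, minus strand): ctcgcaaagcGGTCACACtggcgagtgc
su(Hw) core at CG13310 (chr3L:8798814-8798841, plus strand): ttagagtattGCATACTTgtgggctggt
su(Hw) core at CG42714 (chr3L:6234406-6234433, plus strand): aaaattcactGCATACTTtcgtgcctca

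The members reached up to the threshold and far down the pooled list. Their pooled signal ran from 54.4 to 195 with a median of 107, their pooled ranks from 5448 to 29937 with a median of 11641, and together they held 7.96% of the summed signal of the pooled list. In replicate 2 their signal had a lowest value of 29.2, a median of 50.2 and a highest of 147, and in replicate 3 the values were 31.4, 53.9 and 161. No scale is stated for the signal, and it was used in the choice of members, so these values carry no test. At the upper edge the 5 strongest members had signals of 195.3 to 195.4 and the 5 weakest reproducible peaks 195.5 to 195.6. The 2 lists thus adjoin in signal without overlap, and no step separates them. At the edge in distance, 461 members had their farther replicate summit at 91 to 100 bp, with a median signal of 102, and 347 sub-threshold peaks just outside had it at 101 to 110 bp, with a median of 94.4. By the authors' deposited q-values, 3591 members (39.4%) had a q below 0.05 and 1885 (20.7%) a q below 0.01. The median −log10 q was 1.03 in the members, 0.662 over all pooled peaks and 0.319 in the sub-threshold peaks that were no members. The q-values belong to the same peak calls as the signal, so nothing is read from these values.

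The share of sub-threshold peaks seen again in both replicates fell down the list. Among the 892 sub-threshold peaks ranked 5444 to 6443 it was 88.3% (95% Wilson interval 86.1 to 90.3%), at ranks 14444 to 15443 it was 52.4%, and among the last, from rank 29444, it was 1.28%. Over all 23283 it was 39.1%, a share that the rule itself sets and from which nothing is read. Of the sub-threshold peaks that were no members, 5604 had a summit within 100 bp in replicate 2 alone, 6282 in replicate 3 alone and 2294 in neither. For orientation, 2.08% of all arm positions lie within 100 bp of a summit in both relaxed lists. Both replicates went into the pooled list, so seeing a pooled summit again in them is not an independent test.

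**Figure D1:**
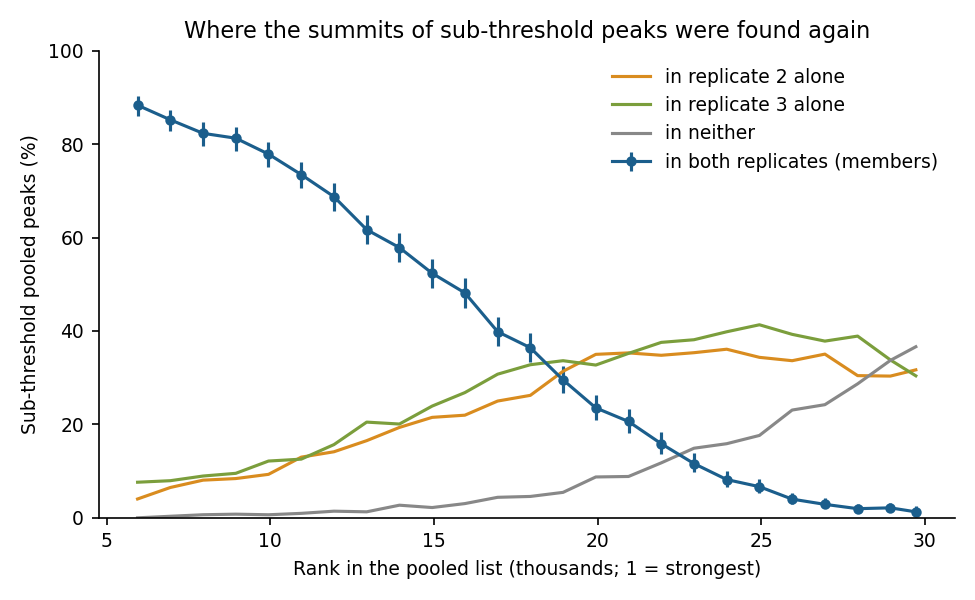
Share of sub-threshold pooled peaks (%) against their rank in the pooled list, in steps of 1000 ranks, by where the summit was found again; the bars on the members are 95% Wilson intervals. The members' share falls from 88.3% at the first step to 1.28% at the last, with no abrupt step between.

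Within the members the 2 replicates gave similar but loosely related signals. The replicate signals were within 2-fold of each other at 8444 members (92.8%), and over 2-fold apart at 659, with replicate 3 higher at 466 and replicate 2 higher at 193. Across the 9103 members the correlation of the log2 signals was 0.40 (Pearson r) and 0.41 (Spearman rho), a description of peaks that share 2 libraries and whose pooled signal has a ceiling, the sum of both replicate signals being about the pooled one (median ratio 0.997). Replicate 3 exceeded replicate 2 by a median of 0.10 on the log2 scale (SD 0.54 over members). Base composition moved with it: the median GC content within 50 bp of the summit was 44.6% at members over 2-fold higher in replicate 3, 36.6% at those over 2-fold higher in replicate 2 and 40.6% at the rest. In 3 classes of rising GC content, of 3207, 3006 and 2890 members, the median excess was 0.02, 0.13 and 0.16. The part of base composition in the difference between replicates was not tested. Few members ranked high in either replicate alone: 295 were among the strongest 5443 peaks of replicate 2, 338 among those of replicate 3 and 4 among both. The ceiling on pooled signal limits these counts, so nothing is read from them. Within the 100 bp that the rule allows, the median distance from the pooled summit was 12 bp in replicate 2 and 17 bp in replicate 3.

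**Figure D2:**
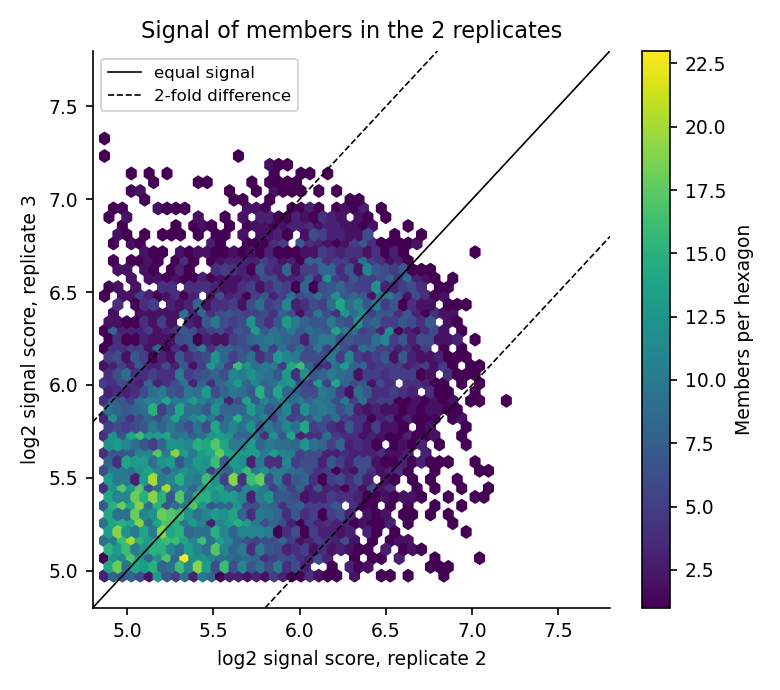
Log2 signal score of each member in replicate 2 (x axis) and replicate 3 (y axis), coloured by the number of members per hexagon; the solid line marks equal signal and the dashed lines a 2-fold difference. Most members (92.8%) lie between the dashed lines, and the cloud is broad (r = 0.40) under the ceiling that the pooled threshold sets.

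Members lay at promoters less often than the weakest reproducible peaks did. Of the members, 44.0% (43.0 to 45%, Wilson) had a transcript start no more than 1 kb from the summit (the promoter class), against 44.8% of all pooled peaks, 65.4% of the 1088 weakest reproducible peaks (their weakest quintile by signal) and 23.6% of all arm positions. The difference from the weakest reproducible peaks was -21.4 percentage points (95% Newcombe interval -24.4 to -18.4). Introns held 34.4% of the members and intergenic sequence 16.0%, together 50.4% against 48.3% of all pooled peaks, which is 18.4 points (15.4 to 21.3) above the weakest reproducible peaks. Coding sequence held 2.83% of members, against 10.5% of arm positions, 3.91% of all pooled peaks and 0.827% of the weakest reproducible peaks. The members exceeded the weakest reproducible peaks by 2.01 points (1.20 to 2.54). Within the members the promoter share rose with signal, from 31.4% in the weakest quintile to 61.3% in the strongest.

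Beside the 14180 other sub-threshold peaks the promoter comparison turned on signal. Over all of them 36.5% lay at promoters, 7.57 points (6.27 to 8.86) below the members. The other peaks were also weaker, with a median pooled signal of 67.4. With the other peaks weighted to the members' quintiles of pooled signal, 52.3% of them lay at promoters and the difference was -8.30 points (-10.1 to -6.36). In the strongest quintile, from a signal of 146 upwards, 61.3% of 1821 members and 71.1% of 291 other peaks lay at promoters. This weighting was added after the data were examined.

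**Figure D3:**
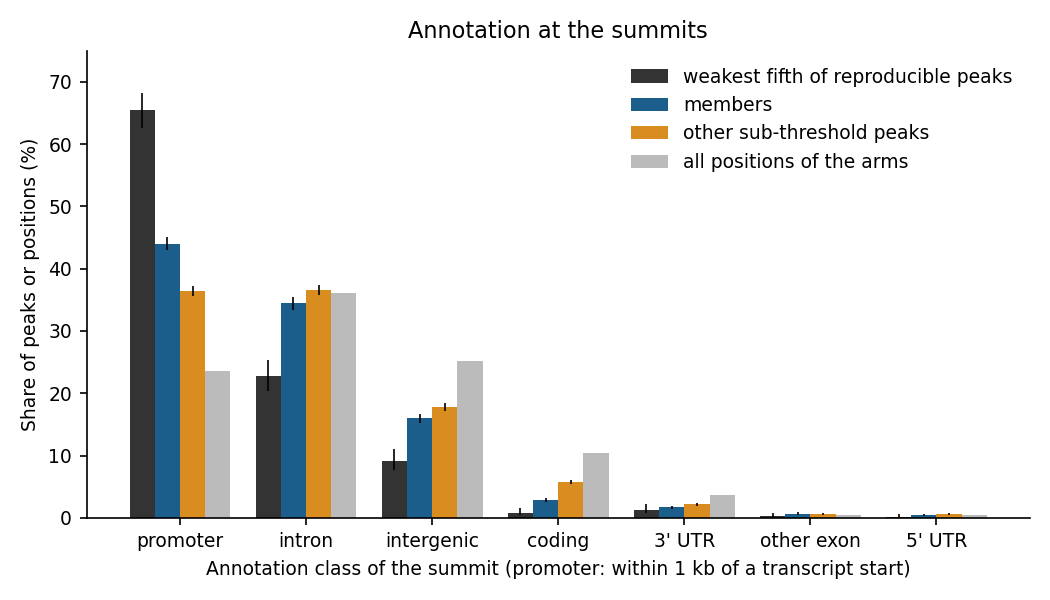
Share of summits (%) in each annotation class for the weakest quintile of the reproducible peaks, the members, the other sub-threshold peaks and all arm positions; bars start at 0 and the lines are 95% Wilson intervals. At promoters the members (44.0%) stand between the weakest reproducible peaks (65.4%) and the other sub-threshold peaks (36.5%).

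The 4007 promoter members sat close to the transcript start. Their median distance was 167 bp, 1540 (38.4%) lay within 100 bp, and 960 fell in the 100 bp just upstream of the start against 580 in the 100 bp downstream. The nearest start belonged to a protein-coding gene for 3537 of them, to a non-coding RNA gene for 377 and to a transfer RNA gene for 61. The 12 strongest members, all with pooled signals of 195 and all at promoters, lay nearest to the starts of ssh, Akap200, CG31086, galla-2, Slbp, tst, tRNA:Ala-CGC-1-3, NKAIN, GstE11, CG6867, dbr and Ddc. The strongest, 45 bp from the start of ssh (slingshot, a cofilin phosphatase), stood at 114 in replicate 2 and at 78.2 in replicate 3. The second, at Akap200, an anchoring protein for protein kinase A, had 61.4 and 138. At Slbp, the histone stem-loop binding protein, the values were 105 and 95.2, and at Ddc, dopa decarboxylase, they were 82.7 and 107. Neither replicate was higher throughout: replicate 2 was higher at ssh and Slbp, and replicate 3 at Akap200 and Ddc. None of the 12 held the exact CTCF core, and the members at NKAIN and GstE11 held Motif 1. In the strongest quintile of members these sequences were at 1.26% and 3.29%, so no difference can be read from 12 members.

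The exact CTCF core was rare in the members and more frequent at their summits than beside them. It lay within 50 bp of the summit of 60 members, 0.659% (0.512 to 0.847%), against 0.148% in windows of the same width 500 bp to the left and right, a 4.44-fold difference (exact two-sided McNemar test, larger p of both sides 1.59e-07, 5.56e-07 after Benjamini-Hochberg adjustment over 14 motifs). Against windows 1000 bp away the fold was 2.50 (p = 0.000524, exact McNemar test). All pooled peaks had it at 2.69%, a value carried by the reproducible peaks, which had it at 12.7%. The weakest quintile of the reproducible peaks had it at 1.47%, so the members differed from them by -0.81 points (-1.73 to -0.22). Those peaks were also stronger. Within the members the core was at 0.439% in the weakest quintile of signal and at 1.26% (0.843 to 1.89%) in the strongest. The other sub-threshold peaks had it at 0.381%, a difference of 0.28 points (0.09 to 0.49) from all members. With the other peaks weighted by quintile of signal, that last difference was 0.26 points with an interval from -0.20 to 0.51, which includes 0. The core read backwards (not complemented) as a control sequence gave 10 members and a fold of 1.11. With at most 1 mismatch allowed, 6.10% of members had the core against 4.49% in the flanks (p = 9.24e-06, exact McNemar test), 9.32% of all pooled peaks and 6.43% of the weakest reproducible peaks. The difference from the latter was -0.34 points (-2.02 to 1.07), and the interval includes 0.

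In the 60 members with the exact core, the core lay a median of 18.5 bp from the summit, and 14 bp in the 692 reproducible peaks with it. Of these members 21 were at promoters, 17 in introns, 9 in coding sequence, 8 between genes, 3 in 3' UTRs and 2 in other exons. Their pooled signal ran from 62.2 to 195 with a median of 127. The strongest, in CG18585 at 7690494 on 2L, had 74.7 in replicate 2 and 122 in replicate 3. The summit in the coding sequence of eya, which encodes a transcriptional coactivator of eye development, had 59.8 and 136, and it lay 288 bp from a reproducible peak. In CG32264 the values were 57.5 and 141, and in the coding sequence of gukh, with CG6005 as the nearest start, 97.1 and 90.5. The member in the 3' UTR of BtbVII near ND-30, a subunit of mitochondrial complex I, had 87.0 and 99.2. At the member in Got2, a mitochondrial aspartate aminotransferase, replicate 2 had 90.8 and replicate 3 had 88.7. Of these 6, replicate 3 was the higher in 4 and by over 2-fold in the members at eya and CG32264. The other members among the 12 strongest with the core lay near CG10822, CG10750, Best3, CG2233 (in the coding sequence of fs(1)h, a bromodomain protein), AMPKalpha and Pi3K68D, with pooled signals from 167 to 190. AMPKalpha, the catalytic subunit of the energy-sensing kinase, was the exception among these in having replicate 2 far above replicate 3 (118 and 48.5).

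The bases around the core differed between members and reproducible peaks. The arms hold 2929 exact copies of the core, of which 724 lay within 50 bp of a reproducible summit, 62 of a member summit, 55 of another sub-threshold summit and 2086 of no pooled summit. At 4 bases before the core the base C stood in 71.4% of the copies at reproducible summits, in 32.3% of the copies at members (20 of 62, Wilson 22 to 44.6%) and in 19.2% of the copies with no summit. Copies at members exceeded those with no summit by 13.1 points (2.63 to 25.6). Scored over the 10 bases on either side by the base frequencies at reproducible summits, 24.2% of the copies at members passed the lower quartile of the reproducible copies, against 10.7% of the copies with no summit, a difference of 13.5 points (4.4 to 25.5). At the 55 copies near another sub-threshold summit the share was 16.4% (8.86 to 28.3%), and its interval overlaps that of the members (15.2 to 36.2%). The scoring was added after the data were examined.

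As exact strings, the DRE, Motif 1 and the su(Hw) core were each more frequent at member summits than the CTCF core. The strings differ in length and in their share in the flanks, so these shares do not rank binding. Over its flanks the CTCF core (4.44-fold) stood above the su(Hw) core and below the DRE and Motif 1. The DRE lay within 50 bp of 157 member summits, 1.72% against 0.198% in the flanks and 1.4% of all pooled peaks (8.72-fold, adjusted p = 1.97e-23, exact McNemar). Motif 1 lay at 137, 1.505% against 0.203% in the flanks and 1.18% of all pooled peaks (7.41-fold, adjusted p = 8.61e-22, exact McNemar). The su(Hw) core lay at 159, 1.75% against 0.505% in the flanks and 1.44% of all pooled peaks (3.46-fold, adjusted p = 2.36e-12, exact McNemar). The Ohler E-box CAGCTG, another core promoter element, was at 5.55% against 4.17% (adjusted p = 0.00035, exact McNemar), with 5.21% of all pooled peaks, and against flanks 1000 bp away its fold was 1.15 and did not pass (adjusted p = 0.121, exact McNemar). The other motifs tested did not pass against flanks 500 bp away: GAGAGAG, the site of GAGA factor, had a fold of 1.35 (adjusted p = 0.0679, exact McNemar), the TATA box TATAAA 1.09, the Polycomb recruiter site GCCATNTT 1.16 and the Zelda site CAGGTAG 0.86. The TATA box passed against flanks 1000 bp away (1.13-fold, adjusted p = 0.00601, exact McNemar) and GAGAGAG at the promoter members (1.65-fold, adjusted p = 0.0166, exact McNemar). Of all members 507 (5.57%) held the exact CTCF core, the DRE, Motif 1 or the su(Hw) core, and 2 of these members held the CTCF core together with the DRE or the su(Hw) core. Neighbouring peaks are not independent, and these p-values describe the list and not variation between embryos.

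**Figure D4:**
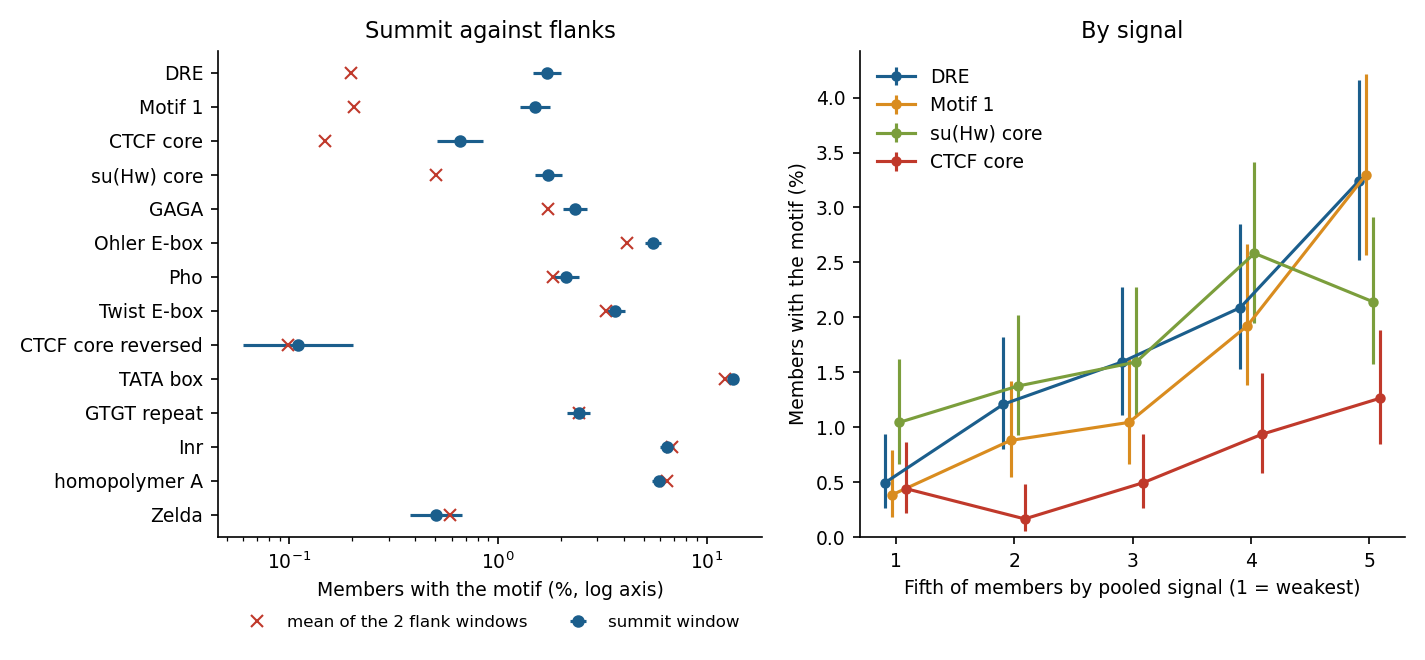
Left, share of members (%, log axis) with each motif within 50 bp of the summit, with 95% Wilson intervals, and the mean share in windows 500 bp to either side; right, the share by quintile of the members' pooled signal. The DRE, Motif 1, CTCF core and su(Hw) core lie to the right of their flanks, and the first 2 rise from 0.494% and 0.384% in the weakest quintile to 3.24% and 3.29% in the strongest.

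The motifs fell into different kinds of member (the p-values in this paragraph are unadjusted). Of the members with the DRE, 148 of 157 were at promoters, and of those with Motif 1, 128 of 137. Outside promoters these sequences were at 0.177% each, and neither differed from its flanks (p = 0.664 and 0.267, exact McNemar test). Members within 100 bp of a transcript start had the DRE at 8.12% (6.85 to 9.59%) and Motif 1 at 7.73% (6.5 to 9.17%). For orientation, 3.83% and 3.97% of the 23133 annotated transcript starts had them in windows of the same width. Those windows lie on starts and not on summits and cover all annotated starts, so no excess is read from these shares. Most members with the su(Hw) core lay elsewhere: 44 of 159 were at promoters, 65 in introns and 40 between genes, and outside promoters its share was 2.26% against 0.589% in the flanks (p = 3.46e-12, exact McNemar test). At promoters it was also above its flanks, at 1.10% against 0.399% (p = 0.0125, exact McNemar test). The exact CTCF core was 6.0-fold over flanks outside promoters (p = 1.83e-06, exact McNemar test) and 3.00-fold at promoters (p = 0.0428, exact McNemar test). Among the 1540 members within 100 bp of a start it lay at 4, 0.260% against 0.325% in the flanks (p = 1, exact McNemar test).

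Set against the other sub-threshold peaks, the su(Hw) core kept its difference after weighting by quintile of signal. Over all of them the members were higher by 1.11 points for the DRE, 1.03 for Motif 1 and 1.01 for the su(Hw) core, and each interval lay above 0. With the other peaks weighted to the members' quintiles of signal, the differences were 0.06 points for the DRE (-0.67 to 0.56), 0.17 for Motif 1 (-0.53 to 0.63) and 0.98 for the su(Hw) core (0.43 to 1.35). The lowest quintile held 10893 of the 14120 other peaks in range, and signal was not matched within quintiles. The rule asks for agreeing summits, and motifs were sought within 50 bp of the summit. The part of summit placement in these differences was not tested. In each quintile of signal the members' share of the su(Hw) core was the higher, and the interval of the difference lay above 0 in the fourth quintile alone (2.58% against 0.895%). Below the threshold the su(Hw) core was at 0.50% of the peaks found in replicate 2 alone and 0.955% of those found in replicate 3 alone, with 0.741% of those found in neither. The weakest reproducible peaks were above the members in the DRE (3.68%) and Motif 1 (3.22%), and in the su(Hw) core (2.48%) by a difference whose interval includes 0 (-1.87 to 0.09).

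The examples shown above had these values in the replicates. At CycT, cyclin T of the elongation factor P-TEFb, the DRE lay 6 bp from the summit, with signals of 97.6 in replicate 2 and 99.6 in replicate 3. At Bub3, a spindle checkpoint protein, the values were 103 and 97.1. At drpr, the engulfment receptor Draper, the Motif 1 member had 86.5 and 116. The su(Hw) core member in a 3' UTR near CG13310 had 72.0 and 115, and the one 382 bp from the start of CG42714 had 109 and 87.5. At mh the DRE member had 111 and 84.4. Neither replicate was higher throughout.

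The bithorax complex held members at a higher density than the arms as a whole. Between the outer ends of Ubx and Abd-B (3R, 16656623 to 16972236, 315614 bp) 56 members and 19 reproducible peaks had their summits, 1.77 and 0.602 per 10 kb against 0.680 and 0.407 over all arms. Here 35 members lay in introns, 11 at promoters, 5 between genes, 3 in other exons, and 1 each in coding sequence and a 3' UTR. Their pooled signal ran from 64.7 to 191 with a median of 94.7, in replicate 2 from 29.5 to 117 with a median of 49.0 and in replicate 3 from 31.8 to 103 with a median of 48.2. None held the exact CTCF core, the DRE, Motif 1 or the su(Hw) core, and 1, in the coding sequence of Abd-B, held the CTCF core with 1 mismatch. Over all members the shares were 5.57% for any of the 4 exact motifs and 6.10% with 1 mismatch; with 56 members these counts are too small to read a difference from. The complex is known for a chain of insulators, and its reproducible peaks reached signals of 37722.

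The strongest member of the complex lay at the promoter of Ubx, the Hox gene of the posterior thorax, 6 bp from a transcript start. Its pooled signal was 191, with 96.7 in replicate 2 and 91.1 in replicate 3. The next lay 38 bp from the start of lncRNA:iab4, a non-coding transcript of the complex, with 95.4 and 103. A member in an intron of Abd-B at 16948733 had 84.7 and 92.1. The intergenic member at 16794444 had 117 in replicate 2 and 74.3 in replicate 3. At a promoter of Abd-B, the Hox gene of the last segments, the values were 94.2 and 89.7, and at abd-A, which lies between them in the complex, 52.6 and 60.2. The members at Ubx and Abd-B thus had nearly equal signals in the 2 replicates. The gene body of Ubx held 9 members and 1 reproducible peak, that of abd-A 3 and 0, and that of Abd-B 8 and 4.

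**Figure D5:**
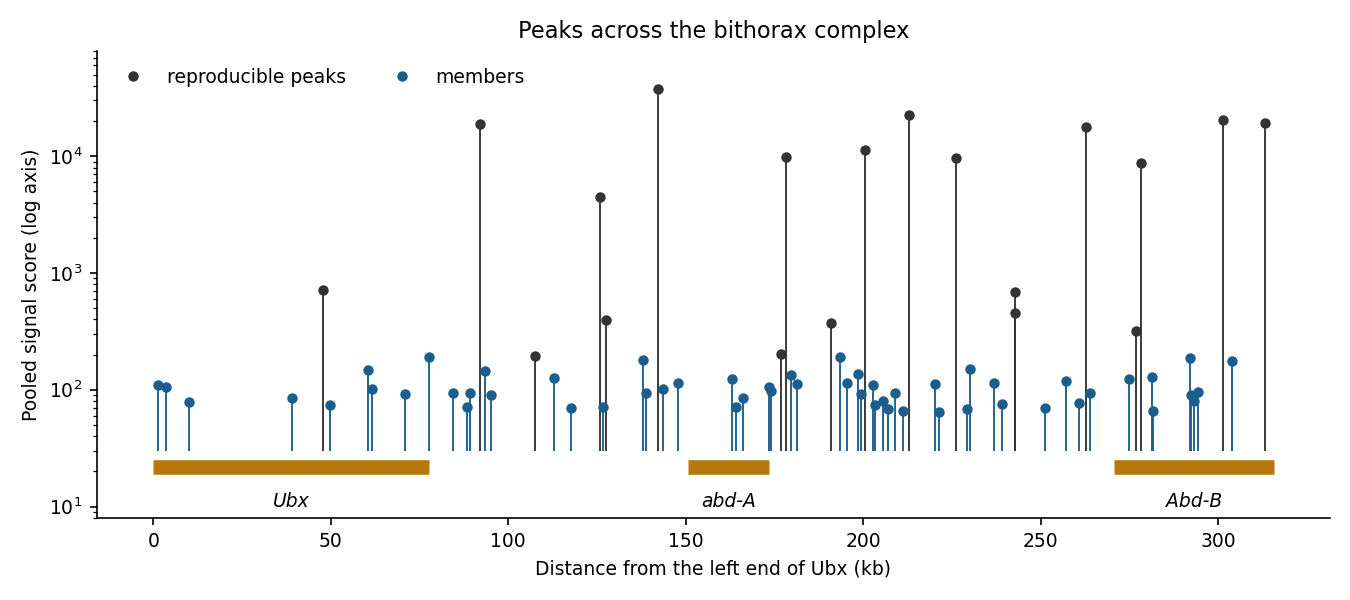
Pooled signal score (log axis) of the 56 members and 19 reproducible peaks by distance from the left end of Ubx (kb), with the 3 Hox genes as bars. All members stay between 64.7 and 191, while the reproducible peaks reach 37722.

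Of all 8 Hox genes 5 had a member within 1 kb of a transcript start (Ubx, Abd-B, abd-A, lab and Antp), and 4 of them had no reproducible peak there, Abd-B being the exception. At lab, the most anterior Hox gene, the member had 64.6 in replicate 2 and 51.3 in replicate 3, and at Antp, the Hox gene of the thorax, 45.9 and 42.9. No member lay in the bodies of Scr and Dfd, and 11 lay in that of Antp. The background for such counts was 25.6% of the 17683 annotated genes with a member within 1 kb of a transcript start and 20.6% with a member and no reproducible peak, against 62.5% (30.6 to 86.3%) and 50% of these 8.

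Architectural protein genes had members at their own starts. Of 28 genes listed 13 had one (46.4%, Wilson 29.5 to 64.2%, against 25.6% of all genes), 7 of them with no reproducible peak there, and 15 had a reproducible peak. The strongest lay at the start of BEAF-32, itself a DRE-binding insulator protein, with a pooled signal of 195, 105 in replicate 2 and 88.2 in replicate 3. At mod(mdg4), a partner of su(Hw), the member had 88.3 and 91.6, and at Trl, which encodes GAGA factor, 117 and 65.6. The member shared by the divergent genes Ibf1 and Ibf2, insulator binding factors, held the DRE and had 46.7 and 69.6. Those at ZIPIC and Clamp, both zinc finger proteins, held Motif 1, with pooled signals of 119 and 89.4. The remaining genes were dwg, pita, fs(1)h and SMC1, and Elba2 and insv, which share 1 member, with pooled signals from 82.6 to 143.

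Genes of the proteasome and the ribosomes had members at shares whose intervals include the 25.6% of all genes. Proteasome subunit genes had a member at 18 of 48 (37.5%, Wilson 25.2 to 51.6%). None of those 18 had a reproducible peak as well, while 13 further proteasome genes had one; over all genes, 891 of the 4530 with a member had both. The strongest were at Rpn2 (105 in replicate 2 and 95.2 in replicate 3, the member shared with Slbp) and at Rpt2 (100 and 95.9), and those at Prosalpha4 and Rpn1 had pooled signals of 183 and 170. Cytoplasmic ribosomal protein genes had members at 19 of 85 (22.4%, 14.8 to 32.3%) and reproducible peaks at 68 (80%). Of these RpL29 had the strongest member (105 and 94.1), and RpS23 had a lopsided one (34.7 in replicate 2 and 143 in replicate 3). RpS19b and RpS24 also had members of pooled signal over 175. Mitochondrial ribosomal protein genes had members at 25 of 73 (34.2%, 24.4 to 45.7%), led by mRpL24, mRpL37, mRpS21 and mRpS26. At mRpL37 replicate 2 stood at 127 and replicate 3 at 42.4.

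Among regulators, ecdysone response genes had members at 11 of 19 (57.9%), among them the nuclear receptor genes EcR (77.2 in replicate 2 and 79.0 in replicate 3), usp (107 and 63.1), ERR (33.9 and 131) and Hr38 (89.6 and 63.6). Cell cycle genes had members at 13 of 30, led by CycT, Bub3, geminin and Dp. Polycomb and Trithorax group genes had them at 14 of 33, led by Scm (98.7 and 41.4, with a DRE), esc (96.4 and 95.1), Su(z)12 (89.8 and 101) and Trl. Segment polarity and signalling genes had them at 9 of 24 (fz, sax, smo and sog the strongest), muscle genes at 8 of 22 (sls, Tm1, Mef2 and TpnC73F), neuronal genes at 8 of 23 (Syx1A, Rbp9, unc-13 and futsch), and gap and pair-rule genes at 6 of 20 (cad, cnc, hry and ttk). Circadian clock genes had them at 3 of 11 (sgg, Pdp1 and cry), while 8 had a reproducible peak. Of 9 dosage compensation genes 5 had a member, among them lncRNA:roX1 (60.8 and 118), mof (104 and 76.0) and Sxl. The Wilson intervals for so few genes are wide. Those for the ecdysone (36.3 to 76.9%), Polycomb and Trithorax (27.2 to 59.2%), cell cycle (27.4 to 60.8%) and dosage compensation genes (26.7 to 81.1%) lie above the 25.6% of all genes. The intervals of the other groups in this paragraph include that share. Reproducible peaks were at 42.1%, 45.5%, 53.3% and 55.6% of the genes of the former lists, in the same order, against 24.4% of all genes. High shares in these lists were thus not particular to the members.

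Genes of sensory receptors and cuticle seldom had a member, beside 25.6% of all genes, and seldom had a reproducible peak either. Odorant and gustatory receptor genes had a member at 8 of 120 (6.67%, 3.42 to 12.6%), with Or63a, Gr39a, Gr61a and Or9a the strongest. Ionotropic receptor genes had one at 1 of 66 (Ir67c). Cuticular Cpr genes had them at 8 of 70 (11.4%, 5.91 to 21%), led by Cpr65Av, Cpr67Fa1, Cpr76Ba and Cpr73D. Eggshell genes had them at 2 of 14 (Cp7Fc and Vm26Ab), with an interval of 4.01 to 39.9% that includes 25.6%. Reproducible peaks were at 3 of 120, 1 of 66, 6 of 70 and 1 of 14 in the same order, against 24.4% of all genes. Replication-dependent histone genes, which lie in a near-identical repeated cluster, had no member at 111 genes (Wilson upper bound 3.35%) and no reproducible peak. The sources used here do not say whether reads from such copies were kept. Transfer RNA genes had a member at 105 of 295 (35.6%, 30.3 to 41.2%), but these genes lie in clusters and the 105 shared 57 members. The strongest were at tRNA:Ala-CGC-1-3, at the pair tRNA:Gln-TTG-1-2 and tRNA:Gln-TTG-1-3, and at tRNA:Val-TAC-1-1. Small nucleolar RNA genes had one at 45 of 257, where 4 genes around snoRNA:Me18S-C1366 shared the strongest, and microRNA genes at 33 of 260 (mir-4940, mir-1003, mir-3643 and mir-ban).

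Members gathered in the bodies of some long genes, given here with their counts of reproducible peaks. Over all arms members also outnumbered reproducible peaks, at 0.680 and 0.407 per 10 kb. The body of fz2, a Wnt receptor gene of 94399 bp on 3L, held 34 members and 1 reproducible peak, 3.60 members per 10 kb, with signals from 76.6 to 192. That of bun held 28 and 6, that of hth, a homeobox partner of Hox proteins, 23 and 3, and that of rols 18 and 2. The largest count was in kirre (36 members, 20 reproducible peaks), a gene of 394149 bp, with a density of 0.913 per 10 kb against 0.680 over all arms. In the short gene Myo31DF, the myosin that sets left-right asymmetry, 8 members lay within 14966 bp with no reproducible peak. Of 213 coding genes with at least 6 members in the body, 19 held no reproducible peak. So short a body would hold few at the density over all arms, and nothing is read from their absence. The genes named here were picked after their values were seen. By windows of 100 kb, the 3 with most members were 3L from 11300001 to 11400000 (33 members, 27 of them intergenic, and 12 reproducible peaks), 3L from 19100001 to 19200000 (30, of which 26 in introns, at fz2) and 2L from 14500001 to 14600000 (29, of which 21 intergenic, beside osp). The median window held 6, and 234 of 1336 held none. None of the members in these 3 windows had the exact CTCF core, the DRE or Motif 1, and 1 had the su(Hw) core. Over all members these motifs were at 0.659%, 1.72%, 1.505% and 1.75% in the order CTCF core, DRE, Motif 1 and su(Hw) core, so no difference can be read from these counts.

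Member density differed little among 4 of the arms. It was 72.5 members per Mb on X, 72.0 on 2L, 72.2 on 3L, 67.6 on 2R, 59.9 on 3R (exact Poisson interval 57.2 to 62.6) and 32.6 on chromosome 4 (23.7 to 43.8), the small heterochromatin-rich arm. There were 1.53 members per reproducible peak on 3R, 1.82 on 3L and 1.33 on chromosome 4. The longest stretch of an arm between neighbouring members was 4097567 bp. The median gap from a member to the nearest reproducible peak was 4847 bp, against 4994 bp for the other sub-threshold peaks. Of the members 10.1% lay within 1 kb of one, 71.8% within 10 kb, and the farthest was 335874 bp away. On the older build dm3 the same rule gave 9650 members.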

How the data were processed

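The starting point was the authors' deposited peak lists of both replicates, pooled and after the irreproducible discovery rate step, on dm6 and, for counts, dm3. Per the file headers the relaxed lists were called from alignments and a control and hold background as well as peaks. Neither aligner, caller nor read depth is named in the labels or headers used here; the intervals given reflect counting error alone. The deposited signal is a score with no stated scale, and the deposited −log10 q-value was used for 2 counts and for medians. Each full list holds 30000 peaks, so its length tells nothing of depth.

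Members were found by the rule given above. The members and lists were chosen with earlier results of these data known. Summits were matched within 100 bp. Genes and transcript starts came from Ensembl release 115 (FlyBase 6.54, 17683 genes, 6290 other entries left out), and sequence from the RefSeq dm6 assembly. Each summit got 1 class, with promoter before exon classes, introns and intergenic sequence. Motif letters were matched on either strand, at most 50 bp from the summit and in equal windows 500 bp to its left and right (exact two-sided McNemar test, the larger p kept, Benjamini-Hochberg over 14 motifs, threshold 0.05). Shares have 95% Wilson intervals and differences Newcombe intervals; where quintiles of signal were weighted, the interval combined those of the quintiles. No test across samples was possible. Named genes followed a rule: the 12 strongest members, the 12 strongest with the exact core, the bithorax complex, architectural and Hox genes with a member, and up to 4 genes of each other list. Of the listed names 3 were not matched and 4 were matched by RefSeq synonyms. The counting, matching and test functions were tested on simulated data. The software was scipy 1.17.1, pandas 2.3.3, numpy 2.4.6 and matplotlib 3.10.9 under Python 3.11.15.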

Additional observations from a re-analysis of the deposited data

How the results depend on the processing

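Leaving out a replicate from the rule gave 14707 to 15385 members, with 41.2 to 41.5% at promoters and 51.7 to 51.8% in introns or intergenic sequence. Matching by overlap of intervals gave 14423 members. Among the 4551 members above the median signal 52.9% were at promoters, 43.0% in introns or intergenic sequence and 1.01% had the exact CTCF core. At least 1000 bp from a reproducible peak the first shares were 42.5% and 52.0%. The promoter share was 33.4% at 500 bp, 59.0% at 2000 bp and 40.2% with protein-coding genes only. A motif window of 25 bp gave 0.384% for the exact core and 3.27% with 1 mismatch, and 100 bp gave 0.945% and 11.1%. The fold of the exact core over flanks ran from 2.50 (flanks 1000 bp away) to 6.36 (motif window 25 bp) in the alternative runs over all members. The unadjusted p was at most 0.000524 there (exact McNemar test). At promoter members alone the fold was 3.00 with an unadjusted p of 0.0428 (exact McNemar test), and within 100 bp of a start it was 0.80. Of the 13 other motifs 4 passed. With flanks 1000 bp away 4 passed too, without the Ohler E-box and with the TATA box; at promoters 5 passed, with GAGAGAG added, and outside promoters 1. Weighted to the members' signal (added after the data were examined), the difference from other sub-threshold peaks reversed for promoters (-8.30 points), was not called for the CTCF core (0.26), the DRE (0.0646) and Motif 1 (0.17), and held for the su(Hw) core; the causes were not tested. No paired analysis was possible because the series has 1 group.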
